A study of Mus musculus with 21 samples.

Results

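Release of paused RNA polymerase II was followed at the level of mRNA through 9 genes: Cdk9, Ccnt1, Ccnt2, Hexim1, Larp7, Supt5, Supt6, Nelfe and Ell2. They were chosen by name, as the rows of the deposited tables with these symbols, and make up 9 of 24421 gene symbols. All 9 were among the 12786 genes with enough counts to be tested. The study analyzed DNA damage and transcription in primary mouse B cell precursors undergoing transformation, and poly(A) RNA-seq was performed in 6 libraries, 2 for each of 3 conditions. All cells came from bone marrow of 53BP1-/- C57BL/6 mice, which lack a DNA repair factor, so the controls carry this deletion too. They were cultured with 10 ng/ml of IL-7 and transduced with the retroviral vector MIGR1, which was empty (EV) or encoded BCR-ABL1, the fusion kinase of leukemia, or C-MYC, a transcription factor. RNA was taken 7 to 9 days after transduction from bulk cultures of transduced cells, so every value is a mean over a mixed culture. The labels do not say whether replicates came from separate mice, and p-values then measure the spread between these libraries only.

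RNA polymerase II starts most genes but halts shortly after the start site, held there by the factors DSIF and NELF. The kinase P-TEFb, made of CDK9 and a cyclin T, phosphorylates DSIF, NELF and the polymerase and so lets it move into the gene body. Much of P-TEFb is kept inactive in a particle with 7SK RNA, HEXIM and LARP7, and the super elongation complex carries the active form to genes. C-MYC is known to bind promoters widely and to recruit P-TEFb.

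The factors are encoded on 8 different chromosomes. In GRCm38, Cdk9 lies at chr2:32705784-32713076 on the minus strand, Ccnt1 at chr15:98538689-98570923 on the minus strand and Ccnt2 at chr1:127774164-127808061 on the plus strand. The inhibitor genes are Hexim1 at chr11:103116231-103119725 on the plus strand, with a single transcript, and Larp7 at chr3:127536714-127553349 on the minus strand. Supt5 lies at chr7:28314891-28338746 and Supt6 at chr11:78206746-78245987, both on the minus strand. Nelfe lies at chr17:34850391-34856372 and Ell2 at chr13:75706757-75772364, both on the plus strand. An antisense gene covers 7.59% of the exon length of Ccnt1, 7.51% of that of Supt5 and 0.956% of that of Ell2, and Sdf2 on the other strand covers 3.41% of that of Supt6. How reads were assigned to strands is not given in the sources used here, so the counts of these 4 genes may include reads of their neighbors.

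C-MYC binds E-box motifs, and the promoters were searched for CACGTG, which reads the same on both strands, and for CACGCG on either strand, where it reads CGCGTG on the other. RefSeq promoters of GRCm38.p6 were matched for 8 of the 9 genes, Nelfe being without an entry, and windows from 250 bases before to 30 bases after the start were used. A single start was searched per gene. The windows of Cdk9, Ccnt1, Supt6 and Ell2 lie wholly within the gene spans given above, so their outermost starts were not searched. CACGTG was found in 0 of 8 windows, against 6.79% of all 32851 windows of this length. With only 8 windows, 0 does not show a lack of the motif. CACGCG was found in 2 of 8, Ccnt2 and Larp7, against 8.65% of all windows. With so few windows, 2 does not show an excess. CACGCG also contains CpG itself, and windows of like CpG content were not compared. The windows of the factors held 57.9% to 78.2% G and C and 19 to 37 CpG, against medians of 52.5% and 6 over all windows. Of all windows, 34.5% had a G and C content at or above the lowest of the factors. The promoters of Ccnt2 (chr1:127773914-127774193, plus strand) and Larp7 (chr3:127553320-127553599, minus strand) are shown for their motifs, and that of Ell2 (chr13:75707234-75707513, plus strand) because Ell2 had, of the 9 genes, the largest difference between C-MYC and EV. Capitals mark CACGCG on either strand. In Ccnt2 the motifs began 85 and 79 bases before the start site, and in Larp7 50 and 31 bases before it. The Ell2 window holds neither motif.
Ccnt2: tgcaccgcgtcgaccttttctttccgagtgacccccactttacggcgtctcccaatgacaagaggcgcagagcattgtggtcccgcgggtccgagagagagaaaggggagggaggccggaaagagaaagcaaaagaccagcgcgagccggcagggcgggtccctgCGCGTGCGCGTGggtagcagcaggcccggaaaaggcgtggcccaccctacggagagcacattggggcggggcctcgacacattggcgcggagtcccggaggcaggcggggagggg
Larp7: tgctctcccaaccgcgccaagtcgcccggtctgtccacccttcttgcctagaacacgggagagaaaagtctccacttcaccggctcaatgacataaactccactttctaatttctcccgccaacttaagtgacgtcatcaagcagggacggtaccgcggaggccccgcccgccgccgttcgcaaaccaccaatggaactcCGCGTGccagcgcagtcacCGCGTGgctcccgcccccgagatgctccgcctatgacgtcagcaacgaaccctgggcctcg
Ell2: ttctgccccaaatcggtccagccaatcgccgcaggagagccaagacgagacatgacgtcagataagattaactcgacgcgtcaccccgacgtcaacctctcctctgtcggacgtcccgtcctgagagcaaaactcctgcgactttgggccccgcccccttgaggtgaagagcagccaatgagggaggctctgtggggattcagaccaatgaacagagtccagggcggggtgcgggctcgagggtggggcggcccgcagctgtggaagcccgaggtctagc
A motif match describes the letters of the window and no binding was measured here.

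The libraries had 20687092 to 24095955 counts on genes. Myc had 3869 and 3277 counts with EV, 7239 and 8381 with BCR-ABL1, and 37920 and 27450 with C-MYC, which bears out the C-MYC labels but does not check those of BCR-ABL1 and EV. Trp53bp1, which encodes 53BP1, still had 342 to 723 counts in each library, and counts per gene do not show which exons were read. Replicates differed by more than counting noise, giving a chi-square, divided by its degrees of freedom, of 45.6 (EV), 10.7 (BCR-ABL1) and 20.3 (C-MYC). B lineage markers were expressed in all conditions. The summed level of 10 was 8376 and 7589 CPM (counts normalised to the library total) with EV, 7634 and 6853 with BCR-ABL1, and 6564 and 5169 with C-MYC. Of the 10, Cd24a had the most counts in every library (64843 and 67072 with EV, 45907 and 46676 with BCR-ABL1, 71907 and 54090 with C-MYC). It was not called in either comparison with EV. The sum therefore hides part of the fall in the 8 markers called lower in C-MYC. Markers of other cells were higher in the EV libraries. Summed myeloid markers (8 genes) had 1256 and 1155 CPM with EV, 151 and 171 with BCR-ABL1, and 222 and 366 with C-MYC. Summed T and NK cell markers (6 genes) had 99 and 75.2 CPM in EV and 3.13 to 7.89 in the other 4 libraries, and stromal markers (4 genes) 102 and 156 in EV against 1.75 to 5.98. Called lower than in EV were 7 of 8, 6 of 6 and 4 of 4 of these markers in C-MYC and 8 of 8, 6 of 6 and 3 of 4 in BCR-ABL1, and of the 10 B lineage markers 8 in C-MYC and 3 in BCR-ABL1. Of 5 erythroid markers, the globins Hba-a1, Hba-a2, Hbb-b1 and Hbb-bs were at 0 in all libraries. The fifth, Alas2, had 12 to 29 counts and was not called. How reads of near-identical gene copies were counted is not given, so the globins do not show that erythroid cells were absent.

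To set the factors in order, levels were taken per length, as deposited FPKM averaged over the 6 libraries. Nelfe, the RNA-binding subunit of NELF, had the highest level at 97.4 FPKM, and Supt5, the large DSIF subunit, followed at 94.6. The order of these 2 turned with the condition: in EV, Supt5 (95.2) was above Nelfe (87.2), and Nelfe led with BCR-ABL1 (96.2 against 91.8) and with C-MYC (108.8 against 96.7). Their libraries overlapped, with 77.9 to 110.3 FPKM for Nelfe and 87.1 to 103.2 for Supt5. Supt6, a histone chaperone that travels with the polymerase, had 71.1 FPKM and its libraries (65.6 to 77.7) lay below all those of Nelfe and Supt5. The kinase Cdk9 had 48.1 FPKM (43.5 to 51.5) and its inhibitor Hexim1 38.3 (31.8 to 47.2), which overlapped. Larp7, which binds and stabilizes 7SK RNA, had 28 FPKM (24 to 30.1), below every library of Hexim1. The cyclin Ccnt1 had 23 FPKM (16.9 to 29.2), the cyclin Ccnt2 15.6 (11.6 to 21.3) and Ell2, an elongation factor of the super elongation complex, 13.6 (8.92 to 16.9), each overlapping with the gene before it. By FPKM, all 9 stood in the upper part of the expressed genes, from the 70.1 percentile for Ell2 to the 94.3 percentile for Nelfe.

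**Figure D1:**
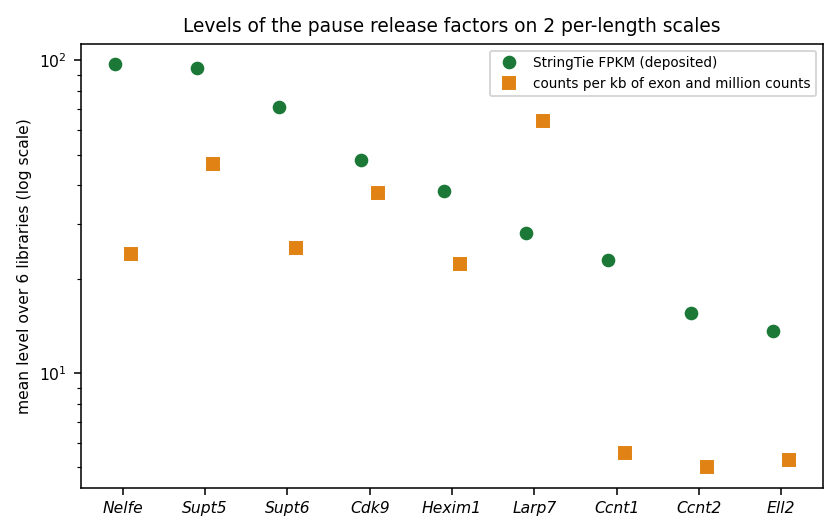
Mean level of each factor over the 6 libraries on a log axis, as deposited FPKM (circles) and as CPM per kilobase of annotated exon (squares). Nelfe had the highest mean by FPKM (97.4) and rank 5 by CPM per kilobase (24), while Larp7 had rank 6 by FPKM (28) and the highest CPM per kilobase (63.9).

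The order depended on how length was taken into account. For CPM per kilobase, counts were divided by the library total without TMM scaling. By CPM per kilobase of annotated exon, Larp7 came first with 63.9, followed by Supt5 with 46.8, Cdk9 with 37.6, Supt6 with 25.1, Nelfe with 24, Hexim1 with 22.3, Ccnt1 with 5.54, Ell2 with 5.27 and Ccnt2 with 5. The lower ranks changed with the condition. In EV, Hexim1 (25.9 CPM per kilobase) was above Supt6 (24.9) and Nelfe (21.4), and Ell2 (6.19) above Ccnt2 (5.81) and Ccnt1 (5.25), while in C-MYC Supt6 (27.2) and Nelfe (26.9) were above Hexim1 (19.4). Relative to the median gene, FPKM was 0.28 times CPM per kilobase for Larp7 and 2.6 times for Nelfe. Percentiles by CPM per kilobase, among genes with counts, ran from 60.2 for Ccnt2 to 95.4 for Larp7, with Nelfe at 86.5. In the means over 6 libraries, Ccnt1, Ccnt2 and Ell2 were the 3 lowest on both scales, and Supt5 was second. Orders between the other factors are therefore not firm, while differences of a gene between conditions do not rest on its length.

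Expression of each factor was next compared between conditions. In C-MYC against EV, 1 of 9 factors rose, Nelfe (1.37-fold), and 1 fell, Ell2 (0.677-fold), while the other 7 did not pass the test. Of all 12786 genes, 18.6% were called higher and 24.5% lower in this comparison. At an unadjusted p below 0.05, 3 factors were higher and 3 lower. DESeq2 called 3 higher and 1 lower (19.4% and 20.6% of all genes), and limma on FPKM 0 higher and 2 lower (13.2% and 26.4%). A fit with the replicate number as a block in edgeR assumes that same-numbered libraries are paired, which the labels do not say. With this block, 3 factors were called higher and 3 lower, against 22.8% and 29% of all genes. Ccnt2, Hexim1, Larp7 and Supt6 passed in addition to Nelfe and Ell2. In BCR-ABL1 against EV, 0 of 9 passed edgeR's quasi-likelihood test, 0 had an unadjusted p below 0.05, and DESeq2 and limma on FPKM called 0 as well. Here 5.08% of all genes were called higher and 12% lower. Between BCR-ABL1 and C-MYC, 0 of 9 passed edgeR's test, DESeq2 or limma (with the replicate block, 1 passed, Ell2), 1 factor in each direction had an unadjusted p below 0.05 (Ell2 and Supt6), and 11.9% of all genes were called higher and 11.5% lower. Without scaling of library totals, the share of calls that were higher moved from 43.2% to 32.2% in C-MYC against EV and from 29.8% to 19.4% in BCR-ABL1 against EV, and the median of all genes in C-MYC against EV from -0.08 to -0.19 on the log2 scale. Values are given as CPM after TMM scaling, EV first, and an edgeR adjusted p is the Benjamini-Hochberg value over all 12786 genes. The markers of other cells that were higher in EV move with both comparisons with EV, and their part in these results was not tested. In bulk cultures, fewer cells of a type and less RNA per cell cannot be told apart.

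**Figure D2:**
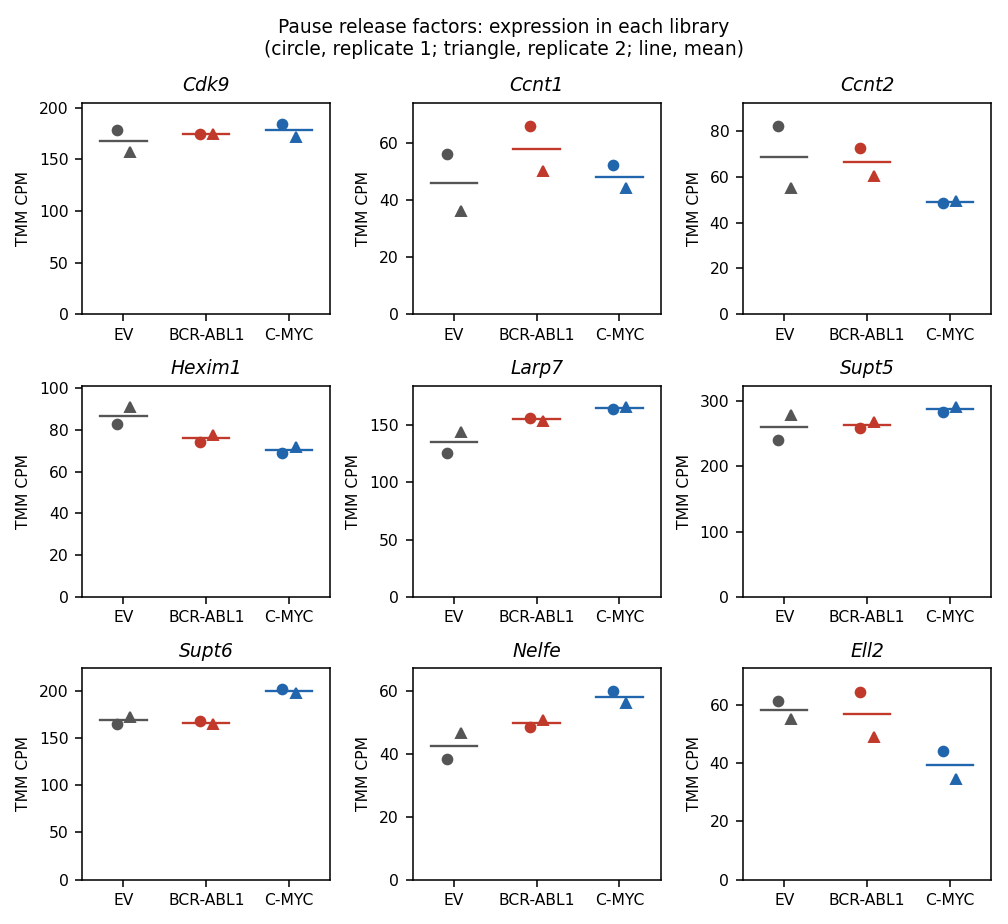
TMM-scaled CPM of each factor in EV, BCR-ABL1 and C-MYC, with 1 point per library (circle, replicate 1; triangle, replicate 2) and a line at the mean of 2 libraries; every axis starts at 0. Both C-MYC libraries of Nelfe (59.9 and 56.1) lie above both EV libraries (38.3 and 46.7), and those of Ell2 (44.2 and 34.7) below them (61.4 and 55.1).

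Cdk9, the catalytic subunit of P-TEFb, had nearly the same level in all conditions. Its libraries had 177.8 and 157 CPM with EV, 174.2 and 174.7 with BCR-ABL1, and 184.5 and 171.8 with C-MYC, and the conditions overlapped. The log2 fold change was 0.09 in C-MYC against EV (95% interval -0.16 to 0.34, edgeR adjusted p = 0.532) and 0.059 in BCR-ABL1 against EV (-0.19 to 0.31, edgeR adjusted p = 0.758). A difference was therefore not detectable within these intervals, which reach 0.34 and 0.31. Mean FPKM was 47.5 ± 5.69 with EV, 48.95 ± 0.231 with BCR-ABL1 and 47.8 ± 1.99 with C-MYC (SD, n = 2).

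In EV and BCR-ABL1, the cyclins that join CDK9 differed more between replicates than the kinase did, while the C-MYC replicates of Ccnt2 lay close together. Ccnt1 had 56.1 and 36.3 CPM with EV, 65.9 and 50.4 with BCR-ABL1, and 52.2 and 44.4 with C-MYC. Its 2 EV libraries differed 1.54-fold, so that they spanned both C-MYC libraries and overlapped with BCR-ABL1. Its log2 fold change was 0.33 in BCR-ABL1 against EV (-0.19 to 0.86, edgeR adjusted p = 0.364) and 0.066 in C-MYC against EV (-0.46 to 0.59, edgeR adjusted p = 0.838). A single library decided the first of these: without EV replicate 1 it was 0.68 (edgeR adjusted p = 0.0361), and without EV replicate 2 it was 0.054. Mean FPKM was 21.7 ± 6.69 with EV, 26.3 ± 4.17 with BCR-ABL1 and 21 ± 1.43 with C-MYC (SD, n = 2). The sign of the second turned without EV replicate 2 (-0.21), without C-MYC replicate 1 (-0.049), without scaling (-0.051) and with limma on FPKM (-0.013).

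Ccnt2, the second cyclin T, had 82.4 and 55.3 CPM with EV, 72.9 and 60.6 with BCR-ABL1, and 48.5 and 49.8 with C-MYC. Both C-MYC libraries lay below the other 4, but the EV libraries differed 1.49-fold. The log2 fold change in C-MYC against EV was -0.49 (-0.94 to -0.03, fold 0.714), which did not pass (unadjusted p = 0.0388, edgeR adjusted p = 0.0789). It was -0.74 and passed without EV replicate 2 (edgeR adjusted p = 0.0031), was -0.17 without EV replicate 1 (edgeR adjusted p = 0.376), and was -0.60 and passed without scaling of library totals (edgeR adjusted p = 0.0358). With the replicate block it was -0.46 and passed (edgeR adjusted p = 0.0319). In BCR-ABL1 against EV the log2 fold change was -0.045 (-0.49 to 0.41, edgeR adjusted p = 0.907). BCR-ABL1 against C-MYC gave 0.44 (-0.01 to 0.89, edgeR adjusted p = 0.143), with both BCR-ABL1 libraries above both C-MYC libraries, and passed without EV replicate 1 (edgeR adjusted p = 0.021), without EV replicate 2 (0.0208) or with only the 4 libraries compared (0.0203). Mean FPKM was 18.1 ± 4.57 with EV, 16.9 ± 2.11 with BCR-ABL1 and 11.9 ± 0.404 with C-MYC (SD, n = 2).

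Hexim1, which holds P-TEFb inactive in the 7SK particle, had 82.7 and 90.9 CPM with EV, 74.3 and 77.5 with BCR-ABL1, and 68.8 and 72 with C-MYC. All 4 oncogene libraries were below both EV libraries, and the 3 conditions did not overlap. Its log2 fold change was -0.30 in C-MYC against EV (-0.56 to -0.04, fold 0.811, edgeR adjusted p = 0.0625) and -0.19 in BCR-ABL1 against EV (-0.46 to 0.07, edgeR adjusted p = 0.288). Neither passed the test. The C-MYC value passed with the replicate block (-0.30, edgeR adjusted p = 0.034), without EV replicate 1 (-0.36, edgeR adjusted p = 0.0333), without scaling of library totals (-0.42, edgeR adjusted p = 0.0227) and with limma on log2(FPKM + 1) (-0.41, adjusted p = 0.0258). Mean FPKM was 44.6 ± 3.74 with EV, 37.2 ± 1.45 with BCR-ABL1 and 33.3 ± 2.08 with C-MYC (SD, n = 2).

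Larp7 had the opposite order to its partner in the particle. It had 125.9 and 144 CPM with EV, 156.6 and 153.3 with BCR-ABL1, and 163.7 and 165.7 with C-MYC, and the 3 conditions did not overlap. Its log2 fold change was 0.29 in C-MYC against EV (0.04 to 0.54, fold 1.22, edgeR adjusted p = 0.0625) and 0.20 in BCR-ABL1 against EV (-0.05 to 0.45, edgeR adjusted p = 0.253), and neither passed. It passed in C-MYC with the replicate block (0.29, edgeR adjusted p = 0.0372), without EV replicate 2 (0.39, edgeR adjusted p = 0.0194) and by DESeq2 (0.34, adjusted p = 0.0267). It was 0.17 without scaling of library totals (edgeR adjusted p = 0.253) and 0.16 with limma on log2(FPKM + 1) (adjusted p = 0.29). Mean FPKM was 26.1 ± 2.87 with EV, 28.6 ± 0.131 with BCR-ABL1 and 29.2 ± 1.21 with C-MYC (SD, n = 2).

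Supt5, which encodes the DSIF subunit SPT5 that P-TEFb phosphorylates, had the most counts of the 9 genes. It had 241.1 and 278.8 CPM with EV, 258.5 and 268 with BCR-ABL1, and 282.7 and 291.7 with C-MYC. The C-MYC libraries lay above the other 4, by a small margin. C-MYC against EV gave a log2 fold change of 0.14 (-0.10 to 0.39, edgeR adjusted p = 0.31) and BCR-ABL1 against EV 0.018 (-0.23 to 0.26, edgeR adjusted p = 0.932). The first value depended on single EV libraries and on scaling: it was 0.046 without EV replicate 1, 0.25 without EV replicate 2, and 0.025 without scaling of library totals. Mean FPKM was 95.2 ± 11.4 with EV, 91.8 ± 3.22 with BCR-ABL1 and 96.7 ± 4.86 with C-MYC (SD, n = 2).

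Supt6 encodes SPT6, which binds the phosphorylated polymerase during elongation, and of the 9 genes it had the closest EV replicates. It had 165.4 and 172.6 CPM with EV, 168.8 and 164.7 with BCR-ABL1, and 202 and 198.4 with C-MYC. Both C-MYC libraries stood apart from the other 4, which overlapped with each other. In C-MYC against EV the log2 fold change was 0.24 (0.02 to 0.47, fold 1.18, edgeR adjusted p = 0.0716), and in BCR-ABL1 against C-MYC it was -0.26 (-0.49 to -0.04, edgeR adjusted p = 0.0828). Both missed the threshold. The first passed with the replicate block (0.24, edgeR adjusted p = 0.0479) and by DESeq2 (0.30, adjusted p = 0.0304). It was 0.13 without scaling of library totals (edgeR adjusted p = 0.317) and 0.13 with limma on log2(FPKM + 1) (adjusted p = 0.279). The second passed without EV replicate 1 (edgeR adjusted p = 0.049) or EV replicate 2 (edgeR adjusted p = 0.0481). Mean FPKM was 70.4 ± 3.51 with EV, 66.05 ± 0.602 with BCR-ABL1 and 76.9 ± 1.18 with C-MYC (SD, n = 2).

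Nelfe rose in C-MYC cells. It had 38.3 and 46.7 CPM with EV, 48.5 and 50.8 with BCR-ABL1, and 59.9 and 56.1 with C-MYC, or 819 and 1116, 1023 and 1223, and 1303 and 1249 raw counts. The 3 conditions did not overlap, with EV lowest and C-MYC highest. The log2 fold change in C-MYC against EV was 0.45 (SE 0.137, 0.13 to 0.77, edgeR adjusted p = 0.0315), higher in 2 of 2 libraries. In BCR-ABL1 against EV it was 0.23 (SE 0.138, -0.09 to 0.54, edgeR adjusted p = 0.313), and in BCR-ABL1 against C-MYC -0.22 (-0.54 to 0.09, edgeR adjusted p = 0.276). The value in BCR-ABL1 against EV was 0.095 without EV replicate 1 and 0.38 without EV replicate 2. The call in C-MYC was near the threshold and was lost in 5 of 6 fits with 1 library left out. The log2 fold change was 0.32 without EV replicate 1 (edgeR adjusted p = 0.0737), 0.41 without C-MYC replicate 1 (0.146), 0.50 without C-MYC replicate 2 (0.0853), and 0.45 and 0.46 without BCR-ABL1 replicate 1 (0.0701) and replicate 2 (0.0663). It also missed without scaling of library totals (0.33, edgeR adjusted p = 0.0924) and with limma on log2(FPKM + 1) (0.32, adjusted p = 0.0746). Mean FPKM was 87.2 ± 13.2 with EV, 96.2 ± 3.69 with BCR-ABL1 and 108.8 ± 2.17 with C-MYC (SD, n = 2).

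Ell2 fell in C-MYC cells and had nearly the same mean in BCR-ABL1 and EV. It had 61.4 and 55.1 CPM with EV, 64.6 and 49.2 with BCR-ABL1, and 44.2 and 34.7 with C-MYC, or 1314 and 1319, 1363 and 1185, and 962 and 773 raw counts. The C-MYC libraries were below the other 4, which overlapped. The log2 fold change in C-MYC against EV was -0.56 (SE 0.179, -0.98 to -0.15, edgeR adjusted p = 0.0366), lower in 2 of 2 libraries, and in BCR-ABL1 against EV it was -0.034 (-0.45 to 0.38, edgeR adjusted p = 0.922). The difference between the oncogenes themselves, BCR-ABL1 against C-MYC, was 0.53 (0.11 to 0.94) and missed the threshold (edgeR adjusted p = 0.0699). Leaving out a library ended the C-MYC call in 3 of 6 fits, with -0.48 without EV replicate 1 (edgeR adjusted p = 0.0807), -0.74 without C-MYC replicate 1 (0.0521) and -0.39 without C-MYC replicate 2 (0.215). A fit of only the 4 libraries compared gave -0.51 (edgeR adjusted p = 0.06). The difference between the oncogenes passed with the replicate block (0.53, edgeR adjusted p = 0.00948), without EV replicate 1 or EV replicate 2 (0.53 in both, edgeR adjusted p = 0.0367 and 0.036) and with only the 4 libraries compared (edgeR adjusted p = 0.0358). ELL2 is also known as an elongation factor of antibody-secreting cells, where it serves the switch to secreted immunoglobulin mRNA. Mean FPKM was 15.97 ± 1.07 with EV, 14.9 ± 2.81 with BCR-ABL1 and 9.93 ± 1.42 with C-MYC (SD, n = 2).

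**Figure D3:**
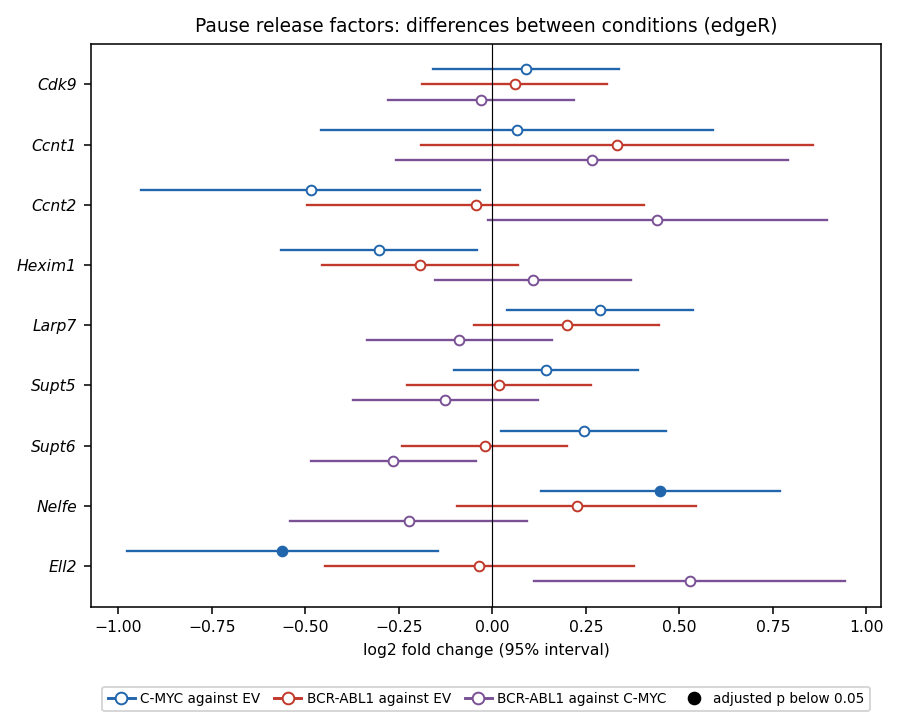
Log2 fold change of each factor with its 95% interval in 3 comparisons, from edgeR's fit of 6 libraries; filled points have an adjusted p below 0.05. Filled are Nelfe (0.45) and Ell2 (-0.56) in C-MYC against EV, and the intervals of BCR-ABL1 against EV all include 0.

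Counted by libraries, 7 of 9 factors did not overlap between C-MYC and EV: Larp7, Supt5, Supt6 and Nelfe were higher and Ccnt2, Hexim1 and Ell2 lower in both libraries. With 2 libraries per condition this is common, and 70.6% of all genes tested did not overlap either. Between BCR-ABL1 and EV, 3 of 9 did not overlap, with Larp7 and Nelfe higher and Hexim1 lower, against 58.9% of all genes. For factors whose conditions all stood apart (Hexim1, Larp7 and Nelfe), the matching share of all genes is not given here. The median log2 fold change of the 9 factors was 0.09 in C-MYC against EV, with a median of -0.08 over all genes, and 0.018 in BCR-ABL1 against EV, with 0.001 over all genes. Both comparisons share the EV libraries.

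The balance between partners was also read as a ratio of raw counts within each library, which does not depend on how libraries are scaled. Hexim1 to Cdk9, inhibitor to kinase, was 0.465 and 0.579 with EV, 0.427 and 0.444 with BCR-ABL1, and 0.373 and 0.419 with C-MYC. Every oncogene library was below both EV libraries. Ccnt1 to Ccnt2 was 0.68 and 0.656 with EV, 0.904 and 0.831 with BCR-ABL1, and 1.07 and 0.893 with C-MYC, so all 4 oncogene libraries were above EV. The EV replicates, which differed 1.54-fold in Ccnt1 and 1.49-fold in Ccnt2, lay close together in this ratio. Nelfe to Supt5 was 0.159 and 0.167 with EV, 0.188 and 0.19 with BCR-ABL1, and 0.212 and 0.192 with C-MYC, again with no overlap between EV and the rest. Larp7 to Cdk9 was 0.708 and 0.917 with EV, 0.899 and 0.878 with BCR-ABL1, and 0.887 and 0.965 with C-MYC, and its conditions overlapped. These ratios are given as values, with no test. The share of other gene pairs whose ratios separate in the same way is not given here, and for single genes a lack of overlap was common. An exact permutation test of 2 libraries against 2 cannot go below p = 0.33.

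**Figure D4:**
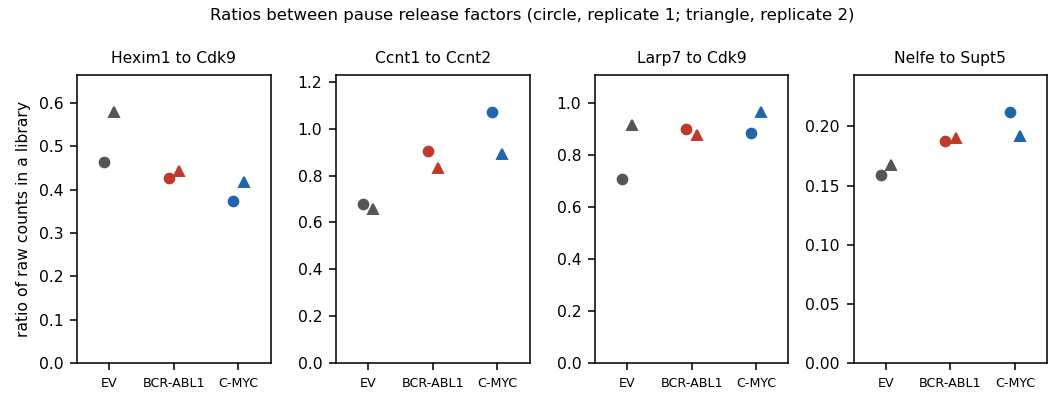
Ratio of raw counts of 2 factors within each library, with 1 point per library (circle, replicate 1; triangle, replicate 2) and axes from 0. Ccnt1 to Ccnt2 was 0.656 and 0.68 in EV and 0.831 to 1.07 in the 4 oncogene libraries, and Larp7 to Cdk9 overlapped between conditions.

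In a test over the 3 conditions together, the largest F values were those of Ell2 (5.93), Nelfe (5.34) and Supt6 (4.87). None of the 9 factors passed it, with edgeR adjusted p = 0.0599, 0.072 and 0.0843 for these 3. Genes with the most similar pattern over the 6 libraries were sought for these 3 factors among 10614 genes. By Pearson's r of log2 CPM, Ell2 was most like Pcyt1b (0.9966) and Golph3l (0.9942), and 104 genes had an r of at least 0.95. Nelfe was most like Ctnnal1 (0.9967) and Fam120a (0.9967), with 350 genes at that level, and Supt6 most like Inpp5a (0.9961) and Pinx1 (0.9956), with 206. Over 6 libraries of 3 conditions such values are a description of pattern only.

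The rest of the elongation machinery was described with 7 lists of 59 genes, all of them tested. In C-MYC against EV, 18 of the 59 rose and 1 fell, where 18.6% of all genes were called higher and 24.5% lower. Without EV replicate 2 the count that rose was 30, and without C-MYC replicate 1 it was 10. The single gene that fell, Aff1, a scaffold of the super elongation complex to which ELL2 belongs, had 446.3 and 391.6 CPM with EV, 398.1 and 341.5 with BCR-ABL1, and 304.5 and 271 with C-MYC (log2 fold change -0.54, SE 0.123, edgeR adjusted p = 0.00976). Its call was lost without C-MYC replicate 2 (edgeR adjusted p = 0.0679), and without EV replicate 2 there were 2 genes that fell. Of the 8 genes of this complex other than Ell2, Eaf1, which binds ELL proteins, rose by 0.45 (SE 0.148, edgeR adjusted p = 0.0426), and leaving out any library but EV replicate 1 ended its call (edgeR adjusted p of 0.0763 to 0.203), with 0.26 without EV replicate 2. The other 6 did not pass, including Aff4 (-0.25, edgeR adjusted p = 0.151) and Ell (-0.14, edgeR adjusted p = 0.609).

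Among the other pausing factors, Nelfa, a further NELF subunit, had 82.5 and 77.2 CPM with EV, 85.7 and 83 with BCR-ABL1, and 119.1 and 99.4 with C-MYC, a rise in C-MYC of 0.45 (SE 0.125, edgeR adjusted p = 0.0213). The call was lost without C-MYC replicate 1 (0.32, edgeR adjusted p = 0.144) and without BCR-ABL1 replicate 1 (0.0507) or replicate 2 (0.051). Nelfb (0.21, edgeR adjusted p = 0.171), Nelfcd (-0.07, edgeR adjusted p = 0.657) and the small DSIF subunit Supt4a (-0.08, edgeR adjusted p = 0.591) did not pass, so the subunits of NELF did not all give the values of Nelfe. The remaining genes of the 7SK particle gave 0.055 for Mepce, which caps 7SK RNA (edgeR adjusted p = 0.834), and -0.68 for Hexim2 (edgeR adjusted p = 0.0721), which was at only 5.26 CPM in EV and 3.28 in C-MYC. Neither of these passed edgeR's test or DESeq2, 1 had an unadjusted p below 0.05 and limma on FPKM called 1 lower.

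Larger differences were seen in the polymerase itself. Of 12 subunits of RNA polymerase II, 9 rose in C-MYC against EV (18.6% of all genes did) and 0 fell, with 0 lower at an unadjusted p below 0.05, by DESeq2 or by limma. The median was 0.52, and 6 to 9 rose when a library was left out. Polr2f had 40.3 and 41.8 CPM with EV, 53.4 and 60.1 with BCR-ABL1, and 93.7 and 87.7 with C-MYC (1.14, SE 0.122, edgeR adjusted p = 0.000515). Polr2h (1.04, SE 0.125, edgeR adjusted p = 0.000756) and Polr2e (1.03, SE 0.127, edgeR adjusted p = 8e-04) were next, and these 3 subunits are shared with the other nuclear polymerases. The catalytic subunit Polr2a gave -0.028 (edgeR adjusted p = 0.864), with 515 CPM in EV and 505 in C-MYC. In BCR-ABL1 against EV, Ell3 of the super elongation complex had the largest log2 fold change of the 59 genes (1.03, SE 0.297). It missed the threshold (edgeR adjusted p = 0.0516), and its level was low, with 4.33 CPM in EV and 8.87 in BCR-ABL1. Polr2f was the only gene of the 59 called in this comparison (0.47, SE 0.122, edgeR adjusted p = 0.0365). That call was lost without either BCR-ABL1 library (edgeR adjusted p = 0.12 and 0.309) or either C-MYC library (0.0687 and 0.0682), as it was without scaling (0.066), with limma at both pseudocounts (0.0582 and 0.0551) and with only the 4 libraries compared (0.0778). With the replicate block 8 of the 59 were called higher in BCR-ABL1 than EV, and 10 genes of the 59 were called without EV replicate 2 and 2 without EV replicate 1.

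Of 11 genes of the PAF1 complex and of histone chaperones that accompany elongation, 4 rose in C-MYC and 0 fell (median 0.26). At an unadjusted p below 0.05, by DESeq2 or by limma, 0 were lower. Over all genes, 18.6% were called higher and 24.5% lower (median -0.08), and these shares apply to the next 2 lists too. Wdr61, a PAF1 complex subunit, rose from 37.5 and 43.2 CPM in EV to 75.9 and 79.3 in C-MYC (0.94, SE 0.129, edgeR adjusted p = 0.00124). Supt16, the large subunit of the chaperone FACT, rose by 0.54 (SE 0.0959, edgeR adjusted p = 0.00344) and Cdc73, also of the PAF1 complex, by 0.51 (SE 0.124, edgeR adjusted p = 0.0131). The call of Cdc73 was lost without C-MYC replicate 2 (0.45, edgeR adjusted p = 0.084). Among 8 other transcription kinases and cyclins, 2 rose: Cdk8, the Mediator kinase, from 42.3 and 50.8 CPM in EV to 98.2 and 98 in C-MYC (1.08, SE 0.131, edgeR adjusted p = 0.00077), and Ccnh, the cyclin of the initiation factor TFIIH, by 0.49 (SE 0.11, edgeR adjusted p = 0.00903). Without C-MYC replicate 1 the call of Ccnh was lost (edgeR adjusted p = 0.0627). Of 14 subunits of Integrator, which ends transcription of paused polymerase, all had a positive log2 fold change in C-MYC (median 0.33), but 1 passed, Ints4 (0.45, SE 0.151, edgeR adjusted p = 0.0441), and it was lost in 5 of 6 fits with a library left out, all but that without EV replicate 2. Of these Integrator subunits, 6 were higher in C-MYC at an unadjusted p below 0.05. DESeq2 called 6 higher (19.4% of all genes) and limma on FPKM 0 (13.2%). Between BCR-ABL1 and C-MYC, 6 of the 59 genes were lower in BCR-ABL1, 3 of them polymerase subunits, where 11.5% of all genes were lower. Called higher were 0 (2 at an unadjusted p below 0.05, 0 by DESeq2 and 0 by limma), against 11.9% of all genes. The 6 became 11 with the replicate block, 16 without either EV library and 0 or 1 without any other library.

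**Figure D5:**
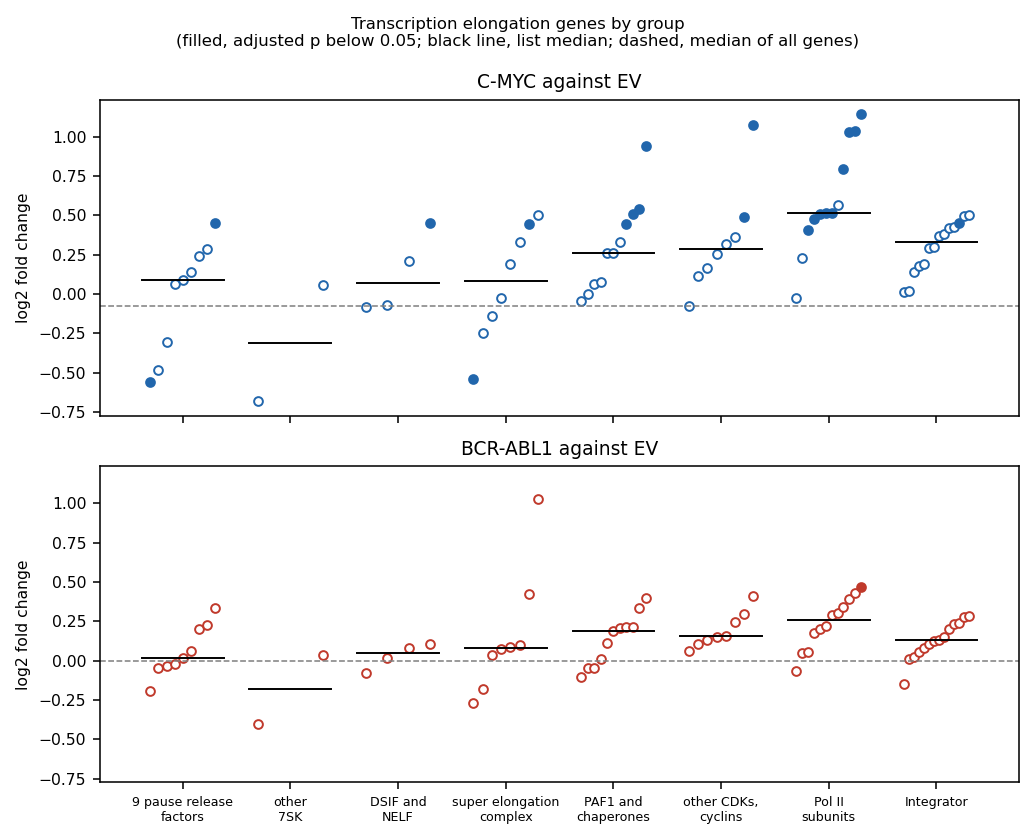
Log2 fold change of each gene, grouped by complex, in C-MYC against EV (upper panel) and BCR-ABL1 against EV (lower panel); filled points have an adjusted p below 0.05, black lines are group medians and dashed lines the median of all genes. In C-MYC the 12 polymerase subunits had a median of 0.52 with 9 filled, against 0.09 with 2 filled among the 9 pause release factors.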

How the data were processed

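Poly(A) RNA-seq of 6 libraries was analysed. The 15 ChIP-seq samples of the series were not analysed here. The authors aligned reads to GRCm38/mm10 with STAR (2.5.0) and deposited whole-number counts per gene symbol, without normalization, for 24421 symbols. The deposited FPKM values were calculated by the authors with StringTie (1.3.0). The counting program and its strand setting are not given in the sources used here. Reads shared by overlapping genes or near-identical copies could thus be split differently. Both tables held 0 columns of other samples.

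Counts were fitted in edgeR 4.0.16 (R 4.3.3), with all 6 libraries in 1 model, no covariate, TMM scaling and filterByExpr, which left 12786 genes. A gene counted as called when its quasi-likelihood p, adjusted after Benjamini and Hochberg over all genes tested, was below 0.05. The standard error is the log2 fold change divided by the square root of F, and intervals are 95%. Levels per length are deposited FPKM, or CPM without TMM scaling per kilobase of exon in GENCODE's GRCm38 annotation, found for 95.7% of symbols. Differences of FPKM were tested with limma 3.58.1 on log2(FPKM + 1), a scale that understates changes of low genes. DESeq2 1.42.0 was an alternative. The labels number the replicates 1 and 2 in each condition. Differences of replicate 1 from replicate 2 correlated by 0.273, 0.236 and 0.204 across genes in the 3 pairs of conditions. Swapping the numbers within a condition would only turn the sign of such values, so they cannot show that same-numbered libraries belong together. Pairing by number is thus an assumption. The fit that makes it, with the replicate as a block, is given beside results it changes. No label says what a number shares.

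The 20687092 to 24095955 counts per library make counting error small for these genes, and the common biological coefficient of variation between replicates (0.151) limits the precision. Before use, the fit was run on simulated counts with known changes. These were drawn with its own estimate of spread and without pairing of replicates, so they do not check it under the real spread.

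The 9 genes and the pathway and marker lists were chosen with earlier results of these data known, so their counts are descriptions. Genes taken out of a list are not reported here. Named are all 9, up to 3 called genes with the largest change from each pathway list in each comparison with EV, the 2 genes most like each of the 3 factors with the largest F (mean of at least 50 counts), and markers. Mepce, Hexim2, Nelfb, Nelfcd, Supt4a, Aff4, Ell, Ell3 and Polr2a were named in addition, after their values were seen. Ints11 was matched by its synonym Cpsf3l. Alternatives covered scaling, filter, test, unit, pseudocount, libraries in the fit, a replicate term and leaving out each library. Figures were drawn with Python 3.11.15 and matplotlib 3.10.9.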

Additional observations from a re-analysis of the deposited data

How the results depend on the processing

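Replicate spread, with only 2 libraries in each condition, limits these results more than depth. Nelfe and Ell2 kept their direction in C-MYC against EV under every alternative run, while their calls, and the calls of most other factors, depended on the setting. The cause was not tested. In C-MYC against EV, 3 factors were called higher with DESeq2 size factors, with DESeq2's test and with the replicate block, and 0 without scaling and with limma at both pseudocounts. Called lower were 3 without scaling and with the replicate block, 2 with limma at both pseudocounts, and 0 in a fit of only the 4 libraries compared. BCR-ABL1 against EV gave 396 genes called higher without scaling, 340 and 364 with limma at pseudocounts of 1 and 0.1, 402 with the 4 libraries compared, and 1221 with the replicate block, against 650. BCR-ABL1 against C-MYC gave 1 factor higher without scaling, without a filter and with the replicate block, and 2 higher and 1 lower with the 4 libraries compared, against 0. It gave 950 genes lower with limma at a pseudocount of 1 and 2271 with the 4 libraries compared, against 1468. Of the 59 pathway genes, those lower in C-MYC than EV numbered 3 without scaling and 2 with limma at both pseudocounts and with the replicate block, against 1. Those higher in BCR-ABL1 than EV numbered 3 with DESeq2 size factors, 0 without scaling and with the 4 libraries compared, 2 without a filter and with limma at a pseudocount of 1, 6 with DESeq2's test and 8 with the replicate block, against 1. Those lower in BCR-ABL1 than C-MYC numbered 10 with DESeq2's test, 17 with the 4 libraries compared and 11 with the replicate block, against 6. By CPM per kilobase the ranks of the levels were 1 for Larp7, 3 for Cdk9, 4 for Supt6, 5 for Nelfe, 6 for Hexim1, 8 for Ell2 and 9 for Ccnt2.

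Over the fold changes of all factors and named pathway genes and all alternatives, 461 values kept their direction and side of the threshold, 48 lost a call, 28 gained one and 23 turned sign. Signs turned only for factors whose reported log2 fold change lay between -0.0447 and 0.0901. In C-MYC against EV, Cdk9 was -0.0279 and Ccnt1 -0.0514 without scaling, and Ccnt1 -0.0134 and -0.0126 with limma. In BCR-ABL1 against EV, Cdk9 was -0.0104 and Supt5 -0.0535 without scaling, Supt5 -0.0463 and -0.0467 with limma, and Supt6 0.00774 with DESeq2's test. In BCR-ABL1 against C-MYC, Cdk9 was 0.0175 without scaling and 0.0352 and 0.0359 with limma. Beside the calls and counts given above and with each factor, the replicate block changed no other call of a factor or named gene.

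Fits without 1 library assume that the lone library left varies like the other conditions. In C-MYC against EV, 1431 (without C-MYC replicate 1) to 2701 (without EV replicate 2) genes were called higher and 1898 to 3376 lower, with 0 to 2 factors in each direction. BCR-ABL1 against EV gave 118 (without BCR-ABL1 replicate 2) to 1000 (without EV replicate 2) genes higher, 547 to 1799 lower, and 0 to 1 factors higher. BCR-ABL1 against C-MYC gave 442 to 2284 genes higher and 176 to 2235 lower, with the lowest counts without BCR-ABL1 replicate 1, 0 to 2 factors higher and 0 to 1 lower. Of the 59 pathway genes, 10 to 30 were higher and 0 to 2 lower in C-MYC than EV, 0 to 10 higher in BCR-ABL1 than EV, and 0 to 16 lower in BCR-ABL1 than C-MYC. Log2 fold changes that crossed 0 ranged in C-MYC against EV from -0.213 to 0.416 for Ccnt1. In BCR-ABL1 against EV they ranged from -0.0248 to 0.157 for Cdk9, -0.302 to 0.275 for Ccnt2, -0.0779 to 0.129 for Supt5, -0.0454 to 0.0135 for Supt6 and -0.236 to 0.147 for Ell2. In BCR-ABL1 against C-MYC Cdk9 ranged from -0.0804 to 0.0222. Without replicate 1 or replicate 2, the log2 change of the ratio Nelfe to Supt5 in C-MYC against EV was 0.201 or 0.416.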
